A study of Drosophila melanogaster with 12 samples.

Results

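Cytochrome P450 enzymes are heme proteins that insert 1 oxygen atom into a substrate, and in insects they make and break hormones, build cuticular lipids and clear plant toxins and insecticides. Most sit in the endoplasmic reticulum and take electrons from NADPH cytochrome P450 reductase, encoded by Cpr in the fly, while a smaller set sits in mitochondria and takes electrons from the ferredoxin reductase dare and its ferredoxins. Insect P450 families fall into 4 clans: CYP2 and the mitochondrial clan, which hold hormone enzymes among others, and CYP3 and CYP4, which hold most of the enzymes linked to toxins and lipids. In the fly head they are made in fat body, glia, sense organs and other cells.

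The P450 genes were taken as every row of the count table with a FlyBase symbol of Cyp followed by a digit, which gave 87 of 17737 genes. Of these, 2 were not P450s: Cyp1 and Cyp40 are cyclophilins, which catalyse peptidyl-prolyl isomerisation, and they were set aside. The remaining 85 comprised 32 genes of the CYP4 clan, 40 of the CYP3 clan, 4 of the CYP2 clan and 9 of the mitochondrial clan. 2 of the 85, Cyp6a15Psi and Cyp6t2Psi, are annotated as pseudogenes. The 6 P450s of ecdysteroid synthesis that carry names without the Cyp prefix (phtm, spo, spok, dib, sad and shd) were not among the 85 and are described separately.

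RNA was sequenced from whole heads of Drosophila melanogaster in 12 libraries, 3 in each of 4 groups. In the neuron-specific knockdown, ELAV-GAL4 drove the PIG-A RNAi stock BDSC 62696, and its control was ELAV-GAL4 crossed to AttP (BDSC 36304). In the glia-specific knockdown, REPO-GAL4 drove the same RNAi, and its control was REPO-GAL4 crossed to the same AttP stock. PIG-A encodes the enzyme of the first step of glycosylphosphatidylinositol anchor synthesis. All 4 groups therefore carried a GAL4 driver, with elav active in neurons and repo in glia, and each control differed from its knockdown by the RNAi stock. The flies were 3 to 5 days old and untreated, and each library pooled 5 to 10 flies per the labels, so a library is not 1 animal. The labels do not say whether the libraries of a group came from separate crosses. A whole head mixes neurons, glia, retina, fat body and muscle, so fewer cells of a type and less RNA per cell cannot be told apart in any value below.

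Libraries held 20694850 to 31893782 counts, and 6 photoreceptor markers summed to 33980 to 56060 CPM in each of them. PIG-A itself, measured with 75 to 175 counts a library, was at 3.73, 5.18 and 3.61 CPM (counts scaled to library size, with trimmed mean of M values factors) in the neuron controls and 3.00, 2.55 and 3.04 in the neuron knockdowns, with no overlap. The difference was -0.55 on the log2 scale (SE 0.20) with an edgeR adjusted p of 0.284. In glia the controls were at 4.93, 4.85 and 4.86 CPM and the knockdowns at 3.98, 4.85 and 5.22, which overlapped, with a log2 difference of -0.04 (SE 0.16, edgeR adjusted p = 0.906), so whole heads gave no detectable fall of the transcript under REPO-GAL4. The methods describe male heads, yet the yolk protein gene Yp1, a product of female fat body, was at 17350 to 83230 CPM and the male-specific RNA lncRNA:roX2 at 0.198 CPM or less in every library. 2 libraries stood apart in muscle genes, with a sum over 7 markers of 16890 CPM in neuron knockdown 3 and 17880 CPM in glia control 3 against 3154 to 5035 CPM in the other 10.

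P450 genes were broadly detected in the head. 84 of the 85 had at least 3 counts in at least 1 library, and 72 reached a mean of at least 1 CPM over the 12 libraries, which is called head-expressed here. Of the 72, 52 exceeded 10 CPM and 11 exceeded 100 CPM. The family summed to 3137 to 4390 CPM per library. The 3 most abundant genes held 25.3% of that sum, the 5 most abundant 35.6% and the 10 most abundant 54.9%.

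**Figure D1:**
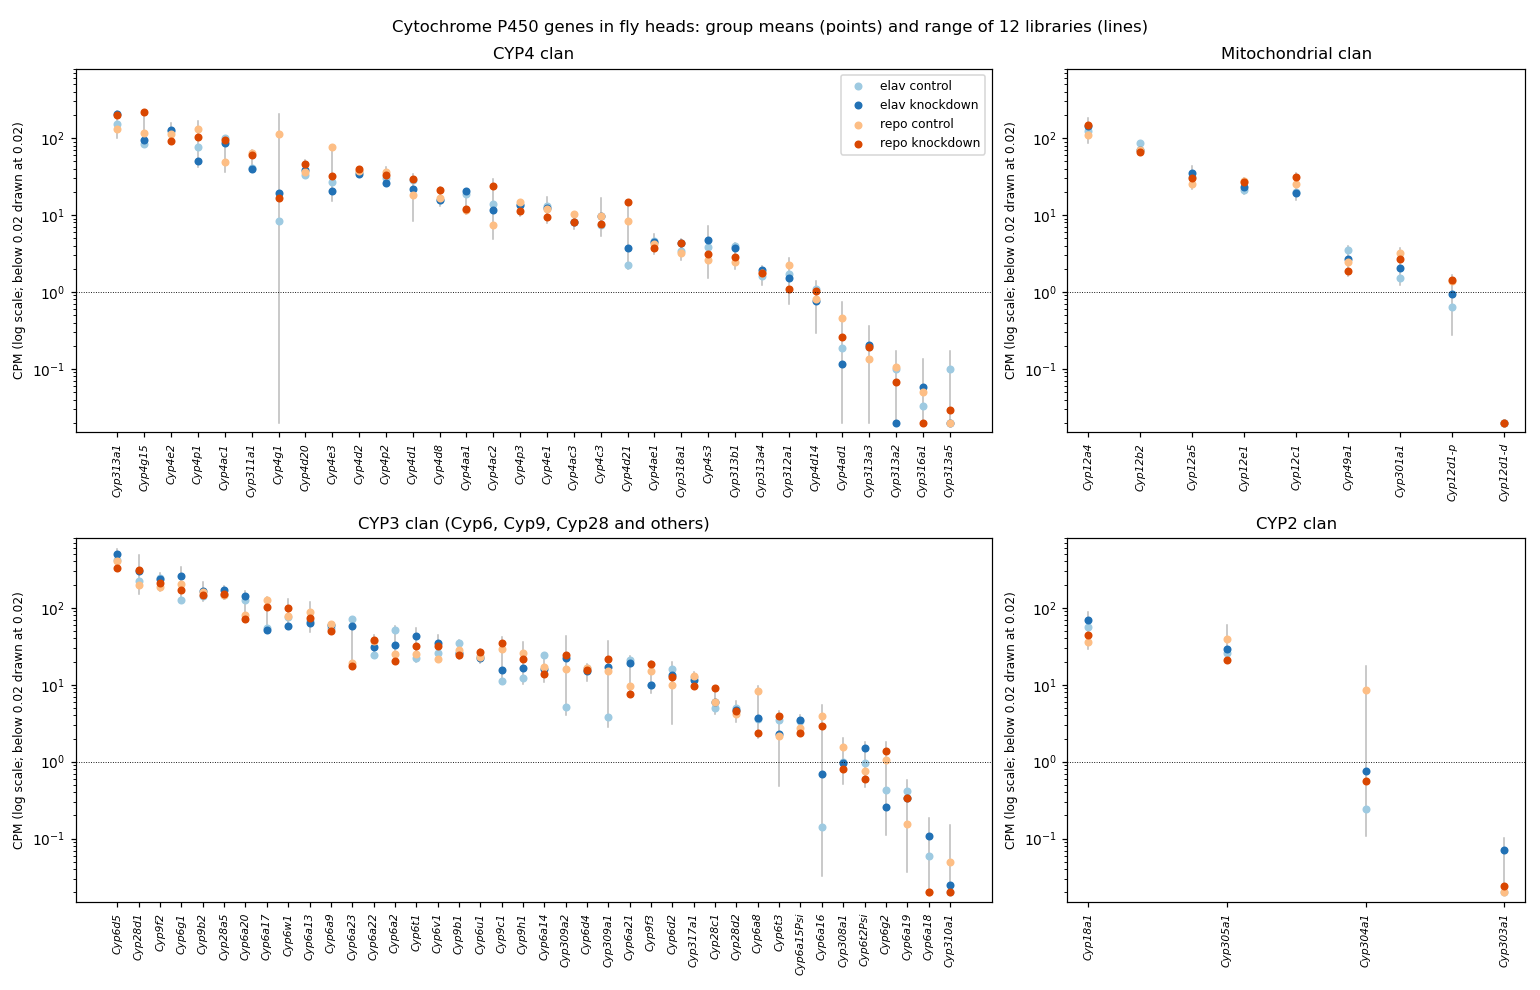
Levels of all 85 cytochrome P450 genes by clan, in CPM on a log axis, with genes ordered by their mean. Points are the means of 3 libraries in each of the 4 groups, lines run from the lowest to the highest of the 12 libraries, the dotted line marks 1 CPM, and values under 0.02 CPM are drawn at 0.02. On this axis the 4 group means of most genes lie near each other compared with the range between genes. Cyp4g1, Cyp304a1 and Cyp6a16 have the longest lines among the genes above 1 CPM.

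The CYP3 clan dominated. Its 40 genes carried 62.1% of the P450 sum, and 35 of them were head-expressed. Cyp6 alone, with 25 genes, gave 35.9% of the sum, the 6 Cyp9 genes gave 13% and the 4 Cyp28 genes gave 12%. Cyp6d5, on chromosome 3R at 14029228 to 14031483 of BDGP Release 6 (dm6), was the most abundant P450 gene with a mean of 414 CPM, and it also led per kilobase of exon, at 252 CPM per kb. It was followed by Cyp28d1, a gene linked to nicotine resistance, with 258 CPM and 159 CPM per kb, and by Cyp9f2 with 220.1 CPM and 125 CPM per kb. Cyp6g1, whose overexpression confers DDT resistance, had 189.9 CPM. Cyp9b2 and Cyp28a5 followed with means of 153.8 and 153.4 CPM and ran from 122 to 219 and from 131 to 193 CPM over the 12 libraries.

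The CYP4 clan carried 27.4% of the sum, with 26 of 32 genes head-expressed. Its leading members were Cyp313a1 at 172.5 CPM, Cyp4g15 at 129.5 CPM and Cyp4e2 at 114.6 CPM. Cyp4g15 is one of the 2 fly CYP4G genes and is described from the nervous system. The other, Cyp4g1, is the oenocyte decarbonylase that makes cuticular hydrocarbons, and its libraries are described with the genes that split a group.

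The mitochondrial clan carried 8.18% of the sum and the CYP2 clan 2.36%. Cyp12a4, linked to lufenuron resistance, led the mitochondrial clan at 130.2 CPM. Cyp12d1-d had 0 counts in all 12 libraries, which for counting error only allows up to 0.0941 to 0.145 CPM in a library at 3 counts. Cyp49a1 was at 1.59 to 3.93 CPM, and Cyp301a1 at 1.22 to 3.75 CPM. The near-identical neighbour of Cyp12d1-d, Cyp12d1-p, was at 0.272 to 1.67 CPM. Reads that match both copies cannot be assigned to one of them with certainty, so these counts do not bound the level of either copy. In the CYP2 clan Cyp18a1, the ecdysteroid 26-hydroxylase that inactivates the moulting hormone, had a mean of 52.1 CPM and Cyp305a1 28.7 CPM. Cyp303a1, needed for sensory bristles, had at most 3 counts in any library.

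The 13 genes under 1 CPM came from all 4 clans and included Cyp310a1, Cyp6a18, Cyp316a1, Cyp4ad1, Cyp6g2 and 3 neighbouring Cyp313 genes, Cyp313a2, Cyp313a3 and Cyp313a5. Exons of 24 of the 85 genes overlapped another annotated feature, a gene or in some cases a transposon insertion, 13 of them over more than 10% of their length. The overlap was 98.7% for Cyp4d2, 98.2% for Cyp9c1, 97.2% for Cyp4d14 and 88.3% for Cyp4ae1, and the values of these genes are uncertain because the strand setting of the counting is not given in the sources used here.

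The summed level of all 85 genes was 3266 to 3385 CPM in the neuron controls, 3137 to 4390 in the neuron knockdowns, 3324 to 3796 in the glia controls and 3368 to 3989 in the glia knockdowns. Each knockdown range overlapped that of its control, and so did the ranges of each of the 4 clans. Among the 72 head-expressed genes the highest library exceeded the lowest by less than 2-fold in 25 genes, by 2- to 4-fold in 32 and by more than 4-fold in 15.

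Glia-specific knockdown of PIG-A was compared first, to ask which P450 genes changed when the RNAi was expressed in glia. Of 75 P450 genes that passed the filter on low counts, 2 passed edgeR's quasi-likelihood F test, with a Benjamini-Hochberg adjusted p no larger than 0.05 and a 1.5-fold change or more as the limits for a call, 1 higher and 1 lower. That is 2.67% of the P450 genes tested, against 3.6% of all 9951 genes tested. DESeq2 at the same thresholds called 10 (13.3%), 7 higher and 3 lower, against 7.17% of all genes. 21 P450 genes (28%) had an unadjusted edgeR p under 0.05 against 22.3% of all genes, 10 of them higher and 11 lower. The libraries of knockdown and control did not overlap for 20 (26.7%) against 29.9% of all genes. The median log2 change was -0.03 over the 75 P450 genes and -0.02 over all genes, and the median absolute log2 change 0.32 and 0.19. By clan, unadjusted p under 0.05 was reached by 10 of 27 CYP4 genes, 8 of 37 CYP3 genes, 2 of 3 CYP2 genes and 1 of 8 mitochondrial genes.

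Cyp6a8, a lauric acid hydroxylase that caffeine and barbiturates induce, fell. It lies in the CYP3 clan on chromosome 2R at 14887171 to 14889010 in 2 exons. Its level was 8.25, 7.19 and 9.58 CPM in the glia controls and 2.17, 2.35 and 2.57 CPM in the glia knockdowns. All 3 knockdown libraries lay far below all 3 controls. The change was 3.49-fold, or -1.80 on the log2 scale (SE 0.17), with an edgeR adjusted p of 0.00972. In the neuron groups it was at 4.09, 3.62 and 2.94 CPM in controls and 3.11, 2.04 and 5.82 CPM in knockdowns, which overlapped (log2 change 0.03, SE 0.37, edgeR adjusted p = 0.986). The glia controls were thus the highest 3 of the 12 libraries.

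Cyp4ac2, a CYP4 gene on chromosome 2L at 5266392 to 5268455 with 5 exons, rose. Glia controls were at 6.73, 10.9 and 4.90 CPM and glia knockdowns at 22.9, 29.2 and 20.1 CPM, with no overlap. The change was 3.25-fold, 1.70 on the log2 scale (SE 0.29), with an edgeR adjusted p of 0.0270. The neuron controls were at 14.6, 13.98 and 13.2 CPM and the neuron knockdowns at 16.1, 11.5 and 7.17 CPM, all below the glia knockdowns (neuron log2 change -0.28, SE 0.26, edgeR adjusted p = 0.675). Its tandem neighbour Cyp4ac1, 5264001 to 5265899, was at 35.9, 70.8 and 40.2 CPM in the glia controls and 97.0, 97.8 and 84.6 CPM in the glia knockdowns. These did not overlap either, although the neuron controls, at 101, 95.1 and 103 CPM, overlapped the glia knockdowns, and the log2 change of 0.95 (SE 0.25) had an edgeR adjusted p of 0.0832. The third gene of this array, Cyp4ac3, had a log2 change of -0.31 (SE 0.13, edgeR adjusted p = 0.222).

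Both glia calls were lost in some of the fits that left out 1 library. Without glia control 1, glia knockdown 2 or glia knockdown 3 the adjusted p of Cyp6a8 was 0.0503, 0.0507 and 0.0502, with log2 changes of -1.82, -1.79 and -1.87. For Cyp4ac2 it was 0.113 without glia control 1, 0.0957 without glia knockdown 1, 0.110 without glia knockdown 2 and 0.0862 without glia knockdown 3, with log2 changes of 1.54 to 1.81.

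Genes that DESeq2 alone called comprised 6 that were higher and 2 that were lower. Cyp4g15, on the X chromosome at 11477058 to 11483233, was 1 of the 6. It was at 101, 160.3 and 93.0 CPM in the glia controls and 231, 217 and 215 CPM in the glia knockdowns, against 80.2 to 98.0 CPM in the 6 neuron libraries. The glia knockdowns were the highest 3 of the 12 libraries and did not overlap any other group. The log2 change was 0.92 (SE 0.21), with an adjusted p of 0.0568 by edgeR and 7.00e-04 by DESeq2. Without glia control 2, the highest control, the log2 change was 1.21 (edgeR adjusted p = 0.0127), and without glia control 3 it was 0.78 (edgeR adjusted p = 0.0486). In the other fits without 1 library the edgeR adjusted p was 0.161 to 0.196.

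Cyp4d21, known as sxe1, is a P450 of the male head that acts downstream of the sex determination genes. Glia controls were at 11.7, 8.29 and 4.71 CPM and glia knockdowns at 14.1, 15.6 and 14.6 CPM. The groups did not overlap, and the log2 change was 0.86 (SE 0.29, adjusted p = 0.143 by edgeR and 0.0408 by DESeq2). The male RNA lncRNA:roX1 was at 5.12, 5.16 and 2.12 CPM in the glia controls and 7.45, 6.11 and 5.75 CPM in the glia knockdowns, also without overlap. The other male marker, lncRNA:roX2, was near the floor in every library. The sum of 4 female markers overlapped, at 42080 to 120400 CPM in the glia controls and 101600 to 170500 CPM in the glia knockdowns. A difference in sex between the groups is thus not read from roX1, and its part in the Cyp4d21 result was not tested.

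Cyp28d1, the second most abundant P450 gene, was at 196, 242 and 149.8 CPM in the glia controls and 273, 353 and 301 CPM in the glia knockdowns. These did not overlap, and the log2 change of 0.67 (SE 0.19) had an adjusted p of 0.103 by edgeR and 0.0133 by DESeq2. The others that DESeq2 called higher were Cyp28c1, with a log2 change of 0.66 (SE 0.15), Cyp313a1 with 0.61 (SE 0.18) and Cyp4ac1, and their edgeR adjusted p lay between 0.0576 and 0.108. Cyp12a4, of the mitochondrial clan, was at 87.4, 134 and 104 CPM in controls and 147, 150.0 and 143 CPM in knockdowns, without overlap (log2 change 0.45, SE 0.16, adjusted p = 0.149 by edgeR and 0.0895 by DESeq2). Cyp6v1, a CYP3 gene, passed the edgeR threshold on p with an adjusted p of 0.0313 but not the fold threshold (log2 change 0.57, SE 0.10). An antisense RNA covers 18.4% of its exons.

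On the lower side, Cyp4e3 was at 81.2, 77.5 and 67.7 CPM in the glia controls and 29.0, 51.1 and 16.9 CPM in the glia knockdowns. The groups did not overlap, and the log2 change was -1.21 (SE 0.35, adjusted p = 0.107 by edgeR and 0.00556 by DESeq2). Cyp305a1, a CYP2 gene, was at 30.7, 26.3 and 60.5 CPM in controls against 20.4, 20.7 and 21.7 CPM in knockdowns (log2 change -0.89, SE 0.30, adjusted p = 0.143 by edgeR and 0.0328 by DESeq2). The groups did not overlap. Its highest value belonged to glia control 3, the library high in muscle genes, and without that library the groups still did not overlap and the log2 change was -0.42. Cyp312a1, with low levels of 0.708 to 2.73 CPM, had a log2 change of -0.997 (SE 0.37, edgeR adjusted p = 0.171) with overlapping groups.

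**Figure D2:**
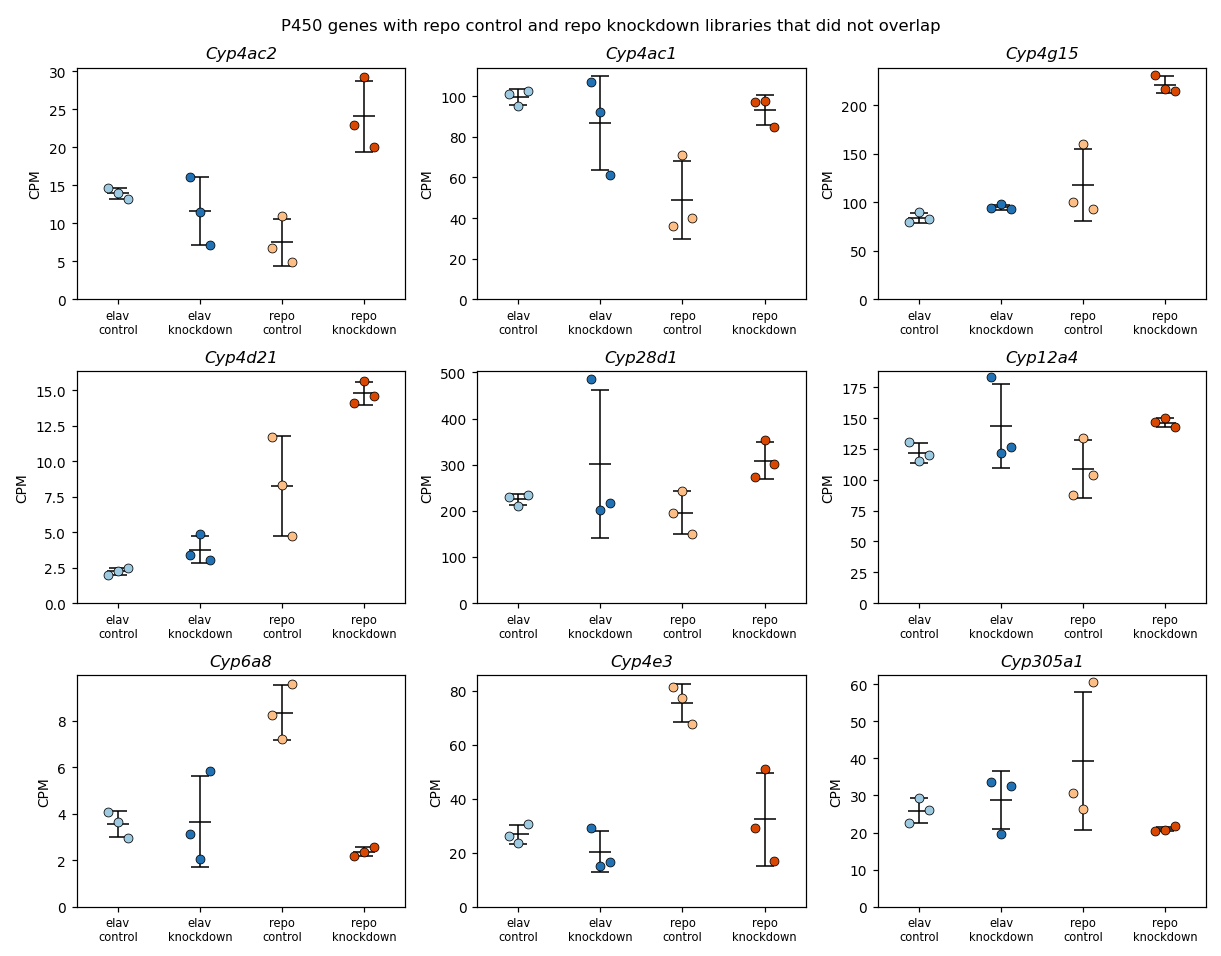
Levels in CPM of 9 P450 genes for which the 3 control and the 3 knockdown libraries under repo-GAL4 did not overlap, in all 4 groups. Points are single libraries, the bar is the mean and the whiskers are 1 SD (n = 3). Cyp4g15 sits at 215 to 231 CPM in the repo knockdowns and at 160.3 CPM or less elsewhere, and Cyp6a8 is highest in the 3 repo controls.

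The sums of several marker lists separated the glia groups. The sum of 7 fat body markers was 5986 to 13010 CPM in the glia controls and 16680 to 23440 CPM in the glia knockdowns, and that of 7 oenocyte markers, nearly all of it Desat1, was 2002 to 3392 and 4125 to 4873 CPM. Neither pair of ranges overlapped. Of the 7 fat body markers, apolpp, Apoltp, FASN1 and ACC were higher in all 3 knockdowns than in any control, and Lsp2, NLaz and to overlapped. Of the oenocyte markers this held for Desat1 and FASN3, while Desat2, Elo68alpha and eloF stayed at 0.711 CPM or less in every library. The levels of FASN2 and FarO are not given one by one. The oenocyte sum is in effect the level of Desat1, and a rise of the oenocyte markers as a set is not read from it. Cyp4g1, the oenocyte P450, had means of 113.2 CPM in the glia controls and 16.5 CPM in the glia knockdowns, with overlapping groups. The 8 glial markers summed to 2108 to 2879 CPM in the controls and 2653 to 2890 CPM in the knockdowns, which overlapped. Of the 8, repo, moody, alrm and wrapper were higher in all 3 knockdowns. The levels of nrv2, Gs2, Eaat1 and Mdr65, the rest of the list, are not given one by one. A rise of the glial markers as a set is thus not read from this. The muscle sum was 3698 to 17880 CPM in the controls and 3154 to 3211 CPM in the knockdowns, and that of 3 Malpighian tubule markers, nearly all of it Best2, was 88.9 to 107.9 and 53.4 to 58.9 CPM, both without overlap. The neuron, photoreceptor and midgut sums overlapped. The part of these cell types in the P450 values was not tested.

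Neuron-specific knockdown of PIG-A was compared next. No P450 gene of the 75 tested was called by edgeR, where 0.16% of all 9983 genes were called. 16 (21.3%) had an unadjusted edgeR p under 0.05, 8 higher and 8 lower, against 14.4% of all genes. DESeq2 called 4 (5.33%) against 2.8% of all genes, with Cyp6t1 and Cyp6g1 higher and Cyp6a2 and Cyp4p1 lower. For 15 (20%) the groups did not overlap, against 21.4% of all genes. The median log2 change was 0.02 over the P450 genes and 0.00 over all genes, and the median absolute log2 change 0.25 and 0.13.

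Cyp6a2, a CYP3 enzyme that metabolises organochlorine and other insecticides, lies on chromosome 2R at 6779749 to 6781491. It was at 46.1, 58.2 and 49.1 CPM in the neuron controls and 32.8, 34.8 and 32.3 CPM in the neuron knockdowns. The groups did not overlap, and the neuron controls were the highest 3 of the 12 libraries. The log2 change was -0.63 (SE 0.10), with an adjusted p of 0.0901 by edgeR and 2.23e-04 by DESeq2. Glia values ran from 19.4 to 27.0 CPM.

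Cyp4p1 followed the same order, from 67.5, 78.2 and 81.4 CPM in the neuron controls to 54.3, 52.9 and 42.4 CPM in the neuron knockdowns. The groups did not overlap (log2 change -0.61, SE 0.12, adjusted p = 0.112 by edgeR and 0.00184 by DESeq2). Cyp9b1 had a log2 change of -0.43 (SE 0.10, edgeR adjusted p = 0.167), Cyp6a14 of -0.59 (SE 0.20, edgeR adjusted p = 0.268) and Cyp6w1 of -0.38 (SE 0.13, edgeR adjusted p = 0.265). Another annotated feature covers 30.1% of the exon length of Cyp6a14.

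Cyp6t1, a single-exon gene on the X chromosome at 21517434 to 21519218, was at 24.7, 19.8 and 22.4 CPM in the neuron controls and 54.2, 38.6 and 37.8 CPM in the neuron knockdowns. All 3 knockdown libraries exceeded all 3 controls, and the log2 change was 0.96 (SE 0.16, adjusted p = 0.0901 by edgeR and 3.02e-05 by DESeq2). edgeR called it without neuron knockdown 2 (adjusted p = 0.0447) and without neuron knockdown 3 (adjusted p = 0.0289). In the other fits without 1 library its edgeR adjusted p was 0.0843 to 0.3835. Cyp313a1 had a smaller change of 0.42 (SE 0.09, edgeR adjusted p = 0.132), with 143 to 162 CPM in controls and 196 to 223 CPM in knockdowns. Cyp4d21 was at 1.98, 2.27 and 2.47 CPM in the neuron controls and 3.38, 4.86 and 3.04 CPM in the neuron knockdowns, also without overlap (log2 change 0.75, SE 0.23, edgeR adjusted p = 0.239), while lncRNA:roX1 overlapped between these groups.

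Several of the larger differences came from 1 or 2 knockdown libraries. Cyp6g1 was at 140, 125 and 119 CPM in the neuron controls and at 335.5, 137 and 299.9 CPM in the knockdowns, where knockdown 2 lay within the control range. The log2 change of 1.005 (SE 0.30) had an adjusted p of 0.237 by edgeR and 0.0123 by DESeq2. Without neuron knockdown 2 it was 1.31 (edgeR adjusted p = 0.00997), a rise that was bound to follow from leaving out that library. In the other fits without 1 library the edgeR adjusted p was 0.225 to 0.55. Cyp309a1 and Cyp309a2, adjacent genes on chromosome 2L, were high in the same libraries. Their summed level was 8.51, 7.82 and 10.2 CPM in the neuron controls, 74.4, 10.2 and 32.8 CPM in the knockdowns, and 20.7 to 76.9 CPM across the 6 glia libraries. Their log2 changes were 2.19 (SE 0.68) and 2.11 (SE 0.61), with edgeR adjusted p of 0.244 and 0.220. Without neuron knockdown 2 they were 2.67 and 2.55, with edgeR adjusted p of 0.0238 and 0.0357. Leaving out that library, the knockdown nearest the controls, was bound to raise them. In the other fits without 1 library the edgeR adjusted p was 0.191 to 0.561 for Cyp309a1 and 0.143 to 0.522 for Cyp309a2. Neuron knockdown 1 also held the highest sum of midgut markers, at 88.8 CPM against 8.54 to 41.4 CPM in the other 11 libraries, nearly all of it from the amylase genes, which fat body cells can express too. Its part in these values was not tested. Between the neuron groups as a whole the fat body sum was 11010 to 11040 CPM in the controls and 11390 to 18470 CPM in the knockdowns and the glial sum 1858 to 1965 and 2048 to 2975 CPM. The midgut sum was 14.5 to 22.6 and 23.8 to 88.8 CPM and the muscle sum 3890 to 4206 and 4238 to 16890 CPM. None of these 4 pairs of ranges overlapped, and their part was not tested either.

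**Figure D3:**
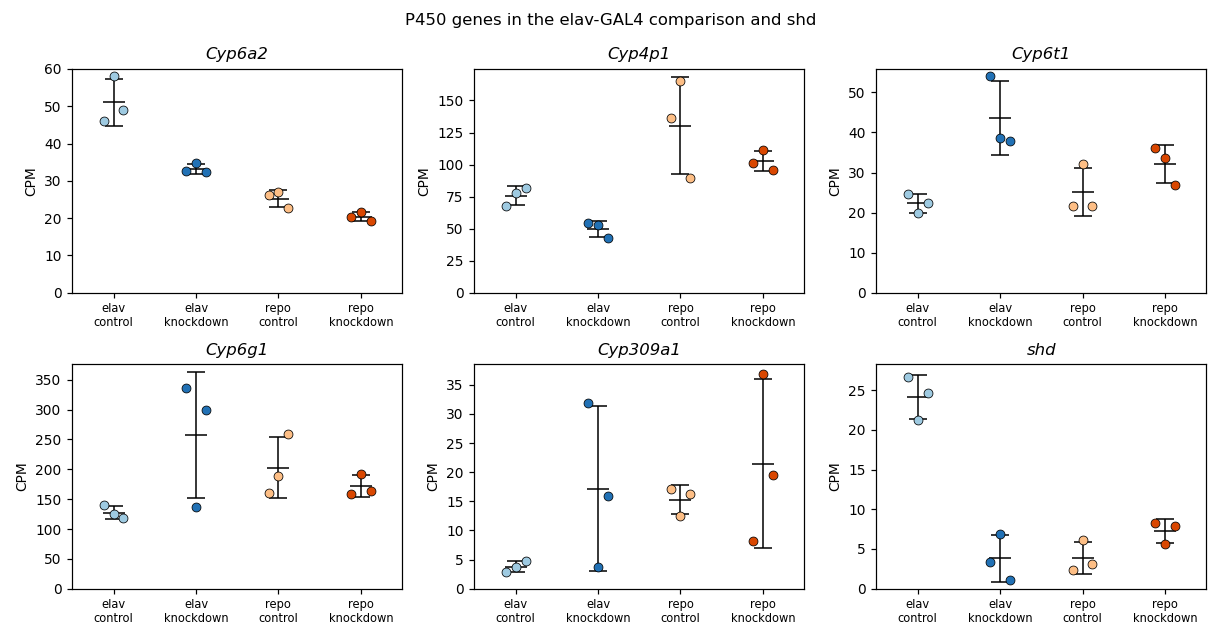
Levels in CPM of 5 P450 genes and of shd, the ecdysone 20-monooxygenase, in all 4 groups. Cyp6a2, Cyp6t1 and Cyp4p1 had the lowest edgeR p of the P450 genes under elav-GAL4, and Cyp6g1 and Cyp309a1 differed widely between the elav knockdowns. Points are single libraries, the bar is the mean and the whiskers are 1 SD (n = 3). Cyp6a2 is highest in the 3 elav controls, Cyp6g1 and Cyp309a1 split the 3 elav knockdowns, and shd exceeds 21 CPM only in the elav controls.

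The difference between the knockdown effects, neuron minus glia, was tested in 1 fit of all 12 libraries. edgeR called 2 of 76 P450 genes (2.63%) against 3.01% of all 10257 genes, and DESeq2 called 6. The DESeq2 count has no share over all genes beside it and is not read further. Cyp4ac2 had a difference of -1.98 on the log2 scale (SE 0.43, edgeR adjusted p = 0.0315), and Cyp6a8 one of 1.83 (SE 0.44, edgeR adjusted p = 0.0472). The Cyp4ac2 difference kept its call in 5 of the 12 fits that left out 1 library, those without neuron knockdown 1, neuron knockdown 3, glia control 2, glia control 3 and glia knockdown 3, and its adjusted p ranged from 0.0114 to 0.0814. Cyp6a8 kept its call in 2 of 12, without neuron knockdown 2 and without glia control 2, with an adjusted p of 0.00906 to 0.130. For Cyp4g15 the difference was -0.75 (SE 0.24, edgeR adjusted p = 0.108), for Cyp6g1 1.23 (SE 0.40, edgeR adjusted p = 0.114) and for Cyp4ac1 -1.15 (SE 0.35, edgeR adjusted p = 0.0980), so these did not pass the test. These differences and the glia comparison share the glia libraries.

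The driver lines were then compared. The 3 ELAV-GAL4 controls were compared with the 3 REPO-GAL4 controls, which share the AttP stock and differ in the driver line. edgeR called 17 of 76 P450 genes (22.4%), 7 higher and 10 lower under elav, against 4.78% of all 10257 genes. In the same fit of 12 libraries, 1 P450 gene (1.32%) was called in the neuron comparison, against 0.292% of all genes, and 7 (9.21%) in the glia comparison, against 5.25% of all genes. DESeq2 called 21 (27.6%) against 6.7% of all genes, and 32 (42.1%) did not overlap against 26.9% of all genes. The median absolute log2 difference between the controls was 0.447 over the P450 genes and 0.192 over all genes. The driver construct, the line's genetic background and any difference in rearing or collection cannot be told apart here. The glial marker sum was 1858 to 1965 CPM in the elav controls and 2108 to 2879 CPM in the repo controls, and the Malpighian tubule sum 66.0 to 78.8 and 88.9 to 107.9 CPM, both without overlap, and their part was not tested.

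5 of the 17 calls lay in the Cyp6a array on chromosome 2R, where 9 P450 genes from Cyp6a22 to Cyp317a1 span 31.7 kb, from 14871366 to 14903095. Cyp6a17, which is required for normal temperature preference, and Cyp6a23 are close paralogues that lie side by side there, at 14873953 to 14875739 and at 14875829 to 14877654. Cyp6a23 was at 67.8, 73.1 and 70.8 CPM in the elav controls and 19.5, 20.2 and 17.6 CPM in the repo controls, and Cyp6a17 at 55.4, 55.7 and 54.6 CPM against 128, 138 and 111 CPM. The pair thus differed in opposite directions, by a log2 difference of 1.90 (SE 0.11, edgeR adjusted p = 5.76e-06) for Cyp6a23 and of -1.17 (SE 0.10, edgeR adjusted p = 1.55e-04) for Cyp6a17. Their sum was 123 to 129 CPM in the elav controls and 129 to 158 CPM in the repo controls. The similarity of the 2 genes may let reads be split between them, so the single levels are less certain than the sum.

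Other genes of the array differed too. Cyp6a21 (log2 difference 1.11, SE 0.20) and Cyp6a20 (0.67, SE 0.15), a gene that modulates aggression, were higher in the elav controls, and Cyp6a8 (-1.21, SE 0.31) was lower, with edgeR adjusted p of 0.00843, 0.0233 and 0.0371. Cyp6a20 was at 135, 120.4 and 120.0 CPM in the elav controls and 72.9, 69.9 and 95.7 CPM in the repo controls. The other 4 genes, Cyp6a22, Cyp6a19, Cyp6a9 and Cyp317a1, were not called. In the 12 fits that left out 1 library, Cyp6a23, Cyp6a17 and Cyp6a21 kept their calls in all 12, Cyp6a20 in 7 and Cyp6a8 in 4.

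Outside the array, Cyp6a2 (log2 difference 1.03, SE 0.10), Cyp4aa1 (0.68, SE 0.10), Cyp4ac1 (1.04, SE 0.25) and Cyp18a1 (0.66, SE 0.17) were higher under elav. Cyp4d21 was at 1.98, 2.27 and 2.47 CPM in the elav controls against 11.7, 8.29 and 4.71 CPM in the repo controls, without overlap (log2 difference -1.87, SE 0.29, edgeR adjusted p = 0.00395). Cyp4e3 (-1.48, SE 0.34), Cyp9c1 (-1.39, SE 0.30), Cyp4p1 (-0.77, SE 0.19) and Cyp311a1 (-0.63, SE 0.09) were lower under elav, as was Cyp301a1 (-1.07, SE 0.26), a mitochondrial P450 of adult cuticle formation. Cyp9c1 overlaps an antisense RNA over 98.2% of its exons. The edgeR adjusted p of these 9 other genes ran from 3.10e-04 for Cyp6a2 to 0.0412 for Cyp18a1. The last 2 of the 17 calls, Cyp304a1 and Cyp6a16, are described with the genes that split a group.

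Leaving out 1 control changed the count. It was 7 without neuron control 1, 2 or 3 or without glia control 1, and 13 to 19 without any other library. Cyp6a23, Cyp6a17, Cyp6a2, Cyp4aa1, Cyp4d21 and Cyp6a21 were called in all 12 of these fits, Cyp311a1 in 11 and the other 10 in 4 to 8. Without neuron knockdown 3 and glia control 3, the libraries high in muscle genes, edgeR called 24. The share of all genes called in these fits is not given, so the counts show only how the P450 calls moved.

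The knockdown libraries of the lines, whose levels do not enter the control contrast, were compared in the same way. This contrast was added after its values were seen. edgeR called 16 of 76 P450 genes (21.1%) between the ELAV-GAL4 and REPO-GAL4 knockdowns, 6 higher and 10 lower under elav, against 4.76% of all genes. 11 genes were called in both contrasts in the same direction, which is 64.7% of the P450 genes called between controls and 68.8% of those called between knockdowns. Over all genes 140 were shared, 28.6% of 490 and 28.7% of 488. The 12 libraries gave 1 common estimate of the spread in both.

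The shared genes were Cyp6a23, Cyp6a21, Cyp6a2, Cyp4aa1, Cyp6a20 and Cyp18a1 on the higher side and Cyp6a17, Cyp311a1, Cyp4p1, Cyp9c1 and Cyp4d21 on the lower side. For Cyp6a23 the knockdown contrast was 1.72 (SE 0.11, edgeR adjusted p = 1.22e-05) and for Cyp6a17 -1.01 (SE 0.10, edgeR adjusted p = 3.15e-04). Called between knockdowns but not between controls were Cyp4g15 (log2 difference -1.23, SE 0.17), Cyp9f3 (-0.91, SE 0.18), Cyp6w1 (-0.78, SE 0.19), Cyp28c1 (-0.62, SE 0.16) and Cyp6g2 (-2.39, SE 0.64), with edgeR adjusted p of 0.00224 to 0.0445. Cyp6g2 stayed at 1.80 CPM or less in every library. Cyp4ac1, Cyp4e3, Cyp301a1, Cyp6a8, Cyp6a16 and Cyp304a1 were called between controls only, and whether the contrasts differ for a gene is what the difference of knockdown effects above tested.

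**Figure D4:**
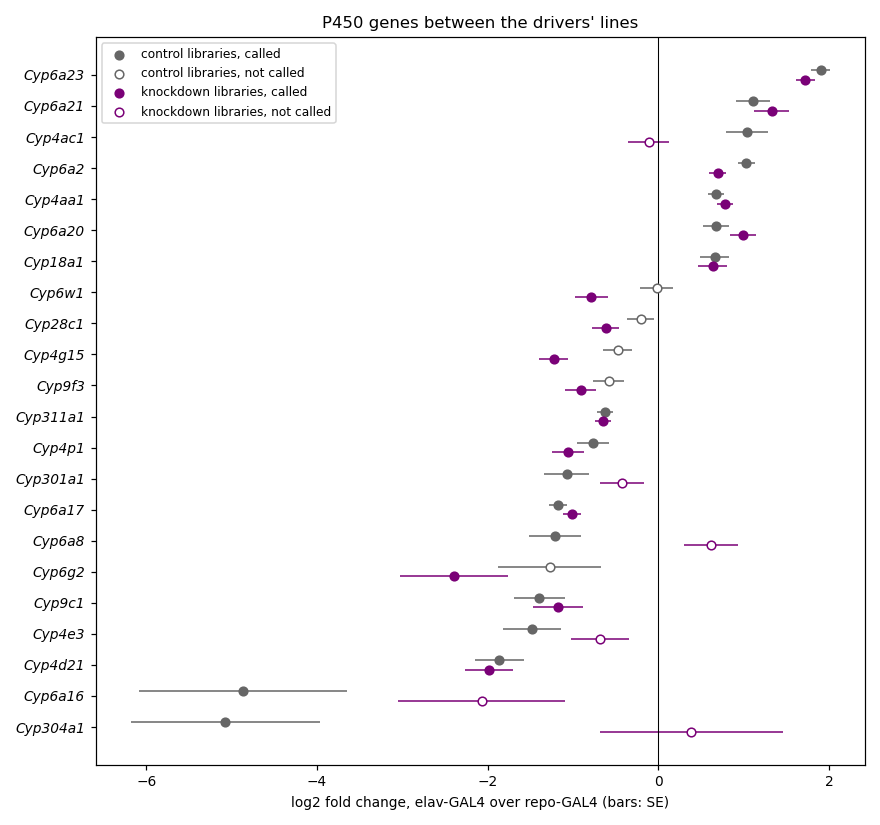
Log2 fold changes of elav-GAL4 over repo-GAL4 libraries with their SE for the 22 P450 genes called by edgeR between the controls, between the knockdowns or in both. Grey points compare the 3 and 3 control libraries, purple points the 3 and 3 knockdown libraries, and open points were not called. For Cyp6a23 and Cyp6a17 both contrasts lie close together, at 1.90 and 1.72 and at -1.17 and -1.01, while Cyp6a8 changes sign.

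46 of the 85 P450 genes stood in 16 groups of neighbours with gaps of at most 10 kb. Their values are given side by side, since no test compared neighbours. Of the values in this paragraph edgeR called only Cyp4ac2 in glia and Cyp4p1 between the controls. In the neuron comparison Cyp309a1 and Cyp309a2 had log2 changes of 2.19 and 2.11. In the glia comparison Cyp12a5 and Cyp12a4 had 0.28 and 0.45, and Cyp4e2 and Cyp4e1 had -0.27 and -0.33. In the same comparison Cyp4ac1 and Cyp4ac2 had log2 changes of 0.95 and 1.70 and Cyp4ac3 one of -0.31. Cyp28d1 had 0.67 and its neighbour Cyp28d2 0.12. Of the Cyp4p array Cyp4p1 had a log2 difference between controls of -0.77, against -0.23 and -0.14 for Cyp4p2 and Cyp4p3. In the Cyp6g1 array the neuron comparison had log2 changes of 1.005 for Cyp6g1, -0.72 for Cyp6g2 and -0.60 for Cyp6t3. Their SE was 0.30, 0.56 and 0.56, and their edgeR adjusted p was 0.237, 0.603 and 0.671. Cyp6g2 had means of only 0.259 CPM in the neuron knockdowns and 0.426 CPM in the neuron controls.

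Some genes split the libraries of a single group. Cyp4g1 was at 0, 25.3 and 0 CPM in the neuron controls, 52.7, 0.102 and 4.92 CPM in the neuron knockdowns, 207, 132 and 0.149 CPM in the glia controls and 0.145, 49.4 and 0.0443 CPM in the glia knockdowns. Every group held at least 1 library above 25 CPM and at least 1 below 0.15 CPM. In raw counts the range was 0 to 7361. Its log2 change was -2.76 (SE 2.11, edgeR adjusted p = 0.489) in glia and 1.16 (SE 1.92, edgeR adjusted p = 0.823) in neurons, so no difference could be detected beyond the spread of replicates. Without 1 library the neuron value ran from -1.79 to 12.0 and the glia value from -10.1 to -2.003.

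Cyp304a1, a CYP2 gene, was at 7.07, 17.4 and 1.08 CPM in the glia controls and between 0.109 and 1.45 CPM in the other 9 libraries. Cyp6a16 was at 5.29, 5.28 and 1.04 CPM in the glia controls and 0.181, 5.52 and 3.01 CPM in the glia knockdowns, and at 0.0330 to 1.25 CPM in the neuron libraries. Their log2 differences between the controls were -5.07 (SE 1.11, edgeR adjusted p = 0.0204) and -4.86 (SE 1.22, edgeR adjusted p = 0.0359), and their calls held in 8 and 6 of the 12 fits without 1 library. In the glia comparison Cyp304a1 had a log2 change of -3.88 (SE 1.18, edgeR adjusted p = 0.115) with overlapping groups, and in the neuron comparison 1.58 (SE 0.55, edgeR adjusted p = 0.274). The trypsin and Jonah protease genes among the midgut markers reached 0.5 CPM only in glia controls 1 and 2, where Cyp304a1 was highest. The sum of all 8 midgut markers did not follow Cyp304a1. It was 15.9 and 26.5 CPM in those libraries, 26.0 CPM in glia control 3 and 88.8 CPM in neuron knockdown 1. The part of midgut tissue in the Cyp304a1 values was not tested. Of the oenocyte markers, FASN3 was at 0.782 to 3.25 CPM over the 12 libraries and Desat1 at 1991 to 4855 CPM. The marker eloF, with 21 counts at most, was highest in neuron control 2 and glia controls 1 and 2, which also held Cyp4g1. It was lower in glia knockdown 2 and at 0 in neuron knockdown 1, which held Cyp4g1 too. No link between eloF and Cyp4g1 is read from this, and the part of oenocytes in the Cyp4g1 values was not tested.

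**Figure D5:**
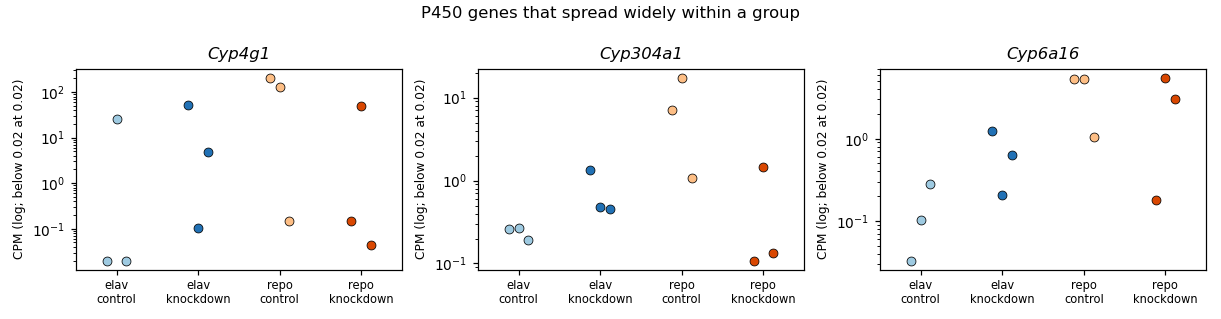
Levels in CPM on a log axis of Cyp4g1, Cyp304a1 and Cyp6a16 in single libraries of the 4 groups, with values under 0.02 CPM drawn at 0.02. Cyp4g1 runs from 0 to 207 CPM and splits each group, while Cyp304a1 is highest in 2 repo controls, at 7.07 and 17.4 CPM.

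Of the partner genes of the P450s, Cpr, the reductase of the microsomal enzymes, was at 279 to 356 CPM in all 12 libraries, with log2 changes of 0.10 (SE 0.10) in neurons and 0.02 (SE 0.12) in glia. Of 17 genes listed as redox partners, ecdysteroid P450s and regulators, 14 were tested and 0 were called by edgeR in either knockdown comparison, where 0.16% of all genes were called in neurons and 3.6% in glia, while DESeq2 called shd in neurons and Cyt-b5-r in glia. At an unadjusted edgeR p under 0.05 stood 4 in neurons (shd, Keap1, ss and Cyt-b5-r) and 2 in glia (Cyt-b5-r and shd), against 14.4% and 22.3% of all genes. Cyt-b5-r, the reductase of cytochrome b5, was at 403, 709.7 and 770.2 CPM in the glia controls and 967, 1276 and 1116 CPM in the glia knockdowns, without overlap (log2 change 0.85, SE 0.26, adjusted p = 0.118 by edgeR and 0.0116 by DESeq2). The mitochondrial partners dare, Fdx1 and Fdx2 were at 15.7 to 20.1, 5.40 to 8.09 and 20.4 to 36.0 CPM, and their adjusted p by edgeR was 0.517 or more in both comparisons.

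The regulators Hr96, a nuclear receptor of xenobiotic responses, and cnc, the fly Nrf2 factor, were at 28.3 to 38.6 and 201 to 297 CPM and were not called. The bHLH-PAS factors ss and tgo were not called either, with tgo at 38.5 to 45.5 CPM. Keap1, the inhibitor of cnc, had a log2 change of -0.34 (SE 0.08, edgeR adjusted p = 0.182) in neurons.

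shd encodes the mitochondrial enzyme that turns ecdysone into 20-hydroxyecdysone. It was at 26.7, 21.2 and 24.6 CPM in the neuron controls and at 3.38, 6.94 and 1.09 CPM in the neuron knockdowns. The glia controls were at 2.34, 6.10 and 3.16 CPM and the glia knockdowns at 8.29, 5.60 and 7.92 CPM, so the 3 neuron controls stood above all 9 other libraries. The neuron log2 change was -2.66 (SE 0.52, adjusted p = 0.106 by edgeR and 0.00594 by DESeq2). edgeR called it without neuron knockdown 2 (adjusted p = 0.0234) and without neuron knockdown 3 (adjusted p = 0.0148). In the other neuron fits without 1 library the edgeR adjusted p was 0.228 to 0.432. In glia the log2 change was 0.94 (SE 0.36, edgeR adjusted p = 0.183), and it was called without glia control 2 (adjusted p = 0.0383). In the other glia fits without 1 library the edgeR adjusted p was 0.214 to 0.437. The difference between the knockdown effects was -3.61 (SE 0.71, edgeR adjusted p = 0.0206), and it was called in 7 of the 12 fits without 1 library. Between the controls shd was higher under elav, by 2.67 on the log2 scale (SE 0.51, edgeR adjusted p = 0.0120), a call lost without neuron control 1 (adjusted p = 0.0508). Cyp18a1, which degrades the same hormone, had log2 changes of 0.30 (SE 0.17) in neurons and 0.32 (SE 0.15) in glia and was called in neither. Of the earlier steps of the pathway, spo had 0 counts in every library, spok and dib were at 0.237 CPM or less, sad at 1.15 CPM or less and phtm at 0.638 to 8.52 CPM.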

How the data were processed

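Whole-head RNA of 12 libraries was analysed, 3 per group as given by the titles and genotypes of the samples. The authors deposited raw counts for each FlyBase gene, and no scaling had been applied to them. Per the paper's methods seqtk was used for trimming, and Bowtie2, which does not split reads across introns, for alignment to BDGP Release 6 (dm6 in the submitters' processing notes). The counting tool and its strand setting are not given in the sources used here. The library kit was a stranded mRNA kit per the labels. A deposited table of glial results was used for gene symbols only, and its fold changes and p-values, like the neuronal table, were not used. Of 17737 identifiers, 17599 were named by a name table, 103 by that deposited table and 35 by neither, and positions came from an annotation of the same build.

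Genes were filtered by filterByExpr and tested with edgeR 4.0.16 (R 4.3.3; trimmed mean of M values, quasi-likelihood F test, two-sided, Benjamini-Hochberg adjustment over all genes tested), with 6 libraries per knockdown comparison and 12 for contrasts across drivers. A call needed an adjusted p no larger than 0.05 and a 1.5-fold change. The SE was the absolute log2 change over the square root of F. DESeq2 1.42.0, used by the authors, was an alternative, run on the genes left by the same filter. CPM per kb used the length of merged exons. The fits were first tested on simulated counts in which 200 genes had been changed. Totals were 20694850 to 31893782 counts, and 3 counts, taken as the floor, equal 0.0941 to 0.145 CPM, for counting error only.

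The labels call the samples biological replicates but do not say whether they came from separate crosses, so p-values measure the spread between these libraries. No 2 libraries of a group agreed within sampling noise (chi-square per gene 7.82 to 278). Replicate numbers did not pair the libraries. The contrast of the knockdowns of both drivers and the fits without the libraries high in muscle genes were added after seeing the data. Alternatives were DESeq2, its size factors in edgeR, no filter, 1 fit of 12 libraries, the replicate block, an adjusted p alone and each library left out. The P450 genes and the lists were chosen with earlier results of these data known. Named were the 12 most abundant P450 genes, those called in any comparison, up to 5 largest rises and falls at an unadjusted p under 0.05 per knockdown comparison, 18 with known roles and 17 partner genes; other genes named were chosen after their values were seen. Sequences were not used here.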

Additional observations from a re-analysis of the deposited data

Results flagged for a closer look

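For 3 genes the knockdown effects under ELAV-GAL4 and REPO-GAL4 differed by a test of the difference itself, edgeR's interaction term over 12 libraries. They were 2 of the 76 P450 genes tested (2.63%), against 3.01% of all 10257 genes, and shd, 1 of 14 partner genes tested. The P450 share was thus no larger than that of all genes. Cyp4ac2 had a difference, neuron minus glia, of -1.98 on the log2 scale (SE 0.43, edgeR adjusted p = 0.0315), with a log2 change of -0.28 in neurons and 1.70 in glia. Cyp6a8 had a difference of 1.83 (SE 0.44, edgeR adjusted p = 0.0472), with 0.03 in neurons and -1.80 in glia. shd had a difference of -3.61 (SE 0.71, edgeR adjusted p = 0.0206), with -2.66 in neurons and 0.94 in glia. The calls of Cyp4ac2, Cyp6a8 and shd held in only 5, 2 and 7 of the 12 fits without 1 library. With the replicate block Cyp4ac2 kept its call (edgeR adjusted p = 0.0247), while Cyp6a8 (0.118) and shd (0.0571) lost theirs. For Cyp6a8 and shd the control of 1 driver differed from the other 3 groups: the glia controls were the highest libraries for Cyp6a8 and the neuron controls for shd.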

How the results depend on the processing

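With 3 libraries a group, the number of calls depended on the tool and on single libraries. In neurons, where edgeR called 0 P450 genes, DESeq2 called 4, a fit with no filter on low counts 1 (Cyp6t1) and a fit of 12 libraries 1 (Cyp6a2); without 1 library the count was 0 to 4. In glia it was 2 with edgeR, 10 with DESeq2, 7 in the 12-library fit and 0 to 8 without 1 library. For the controls it was 7 to 19 without 1 library, for the knockdowns of both drivers 10 to 19, and for the difference of knockdown effects 0 to 5, with 6 by DESeq2. Among the 17 partner genes DESeq2 called 1 in each knockdown comparison, and without 1 library the count was 0 to 1 in both, 0 to 1 between controls and 0 to 1 for the difference. Leaving out neuron knockdown 3 and glia control 3 together, an alternative chosen after seeing the data, called 1 partner gene between the knockdowns and 24 P450 genes between the controls. The counts without a library, without the filter and with the replicate block have no share over all genes beside them. Nor has the DESeq2 count for the difference. They show how the calls moved and are not read as a result about the P450 genes. The cause of the changes in the counts was not tested, except that fits without a library have fewer samples.

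Same-numbered libraries did not deviate together (r = -0.152 to 0.148 in both drivers), so the numbers share only a name. With the replicate block edgeR called 0 partner genes for the difference of knockdown effects, since shd had an adjusted p of 0.0571, and Cyp6a8 lost its call there (0.118). The block also gave Cyp304a1 a call in glia (adjusted p = 0.0331), and took the calls of Cyp18a1 (0.0652) and Cyp6a16 (0.0590) between the controls and of Cyp18a1 between the knockdowns (0.0655). No other call was lost, and with the block 16 P450 genes were called between the controls and 17 between the knockdowns. Of 68 gene differences that were called, or had the largest changes at an unadjusted p under 0.05, 0 changed direction in any alternative. They were picked by size and p in the same libraries that the alternatives refit. An unchanged direction was therefore largely fixed in advance and adds no support to them. DESeq2's size factors in edgeR moved no P450 count by over 1.5 times, and the number of head-expressed genes was 67 to 75 under other limits and scalings.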
